A study of Mus musculus with 22 samples.

Results

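Complement mRNAs were examined in isolated pancreatic islets through 10 genes, C8b, C8a, C8g, C3, C4b, C1qa, C1qb, C1qc, Cfb and Cd59a, out of the 56860 gene symbols of the deposited table. The members were taken by symbol. C8b was chosen for its large increase in heterozygous islets of the Mixed background, so its values there, and its comparisons that use those mice, are given as a description without a test. The other 9 were taken by name as components of the same system. Each library came from the islets of 1 male mouse aged 5.5 weeks, and mice were either wild type (WT) for MafA or heterozygous (Het) for its S64F allele, on a background that the labels call C57 or one they call Mixed. On the C57 background there were 5 WT and 6 Het mice, and on the Mixed background the same numbers. The labels state neither the strains of the Mixed background nor how the allele was made.

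Complement is a cascade of secreted proteins that tags and perforates cells. C1q, built from the chains of C1qa, C1qb and C1qc, starts the classical pathway, C4b (the gene of component C4) and C3 supply the fragments that coat a surface, and Cfb forms the convertase of the alternative pathway. The terminal components, with C8 among them, assemble into the membrane attack complex, and CD59 on the cell surface blocks the last step of that assembly. Liver is the main source of most circulating components, macrophages are a main source of C1q, and C3 is also made by islet cells. MAFA is a transcription factor of the insulin-producing beta cell.

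Levels are in TPM, an abundance unit scaled by transcript length and by library total, so genes can be set side by side. Between 14808 and 16126 genes reached 1 TPM in a library, and TPM keeps no read depth, so depth was unknown. Mafa lay between 362 and 571 TPM in WT and 93.8 and 152 TPM in Het islets of C57, and between 440 and 775 TPM and 95.2 and 199 TPM in those of Mixed. Beta-cell markers (8 genes) summed to between 250651 and 478791 TPM in every library, so the islet label held. Differences were tested with limma on log2(TPM + 1) over all 16749 genes with at least 1 TPM in at least 5 libraries, with Benjamini-Hochberg adjustment and a threshold of 0.05. Of the 10 members, 8 passed that filter, and C8a and Cfb did not.

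In C57 islets, 3 of the 8 measured members passed the Het against WT test (37.5%), where 38.0% of all genes did. C8b was higher, and C1qa and C1qb were lower (over all genes, 26.4% were higher and 11.6% lower). In Mixed islets, 5 of the 7 measured members besides C8b passed (71.4%), against 44.1% of all genes. There, C1qa, C1qb, C1qc and C4b were higher in Het and C8g was lower (over all genes, 30.7% and 13.5%). C1qa and C1qb were thus called in opposite directions on the backgrounds, though the C1qb call in C57 and the C1qa call in Mixed were lost under some alternatives. The median log2 difference was -0.11 over the 8 members in C57 and 0.60 over the 7 in Mixed, beside 0.08 and 0.10 over all genes. Scaling by median of ratios moved those medians over all genes to 0.01 and -0.01, and the genes called from 4422 higher and 1939 lower to 3520 and 3062 in C57, and from 5137 and 2256 to 3582 and 3746 in Mixed. Het and WT values did not overlap for 2 of the 8 members in C57 (C8b and C1qa) and for 1 of the 7 in Mixed (C1qc), against 21.0% and 23.6% of all genes. With a log2 change of at least 1 also required, C8b passed in C57 (1 of 8, against 3.28% of all genes) and C4b in Mixed (1 of 7, against 6.12%).

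**Figure D1:**
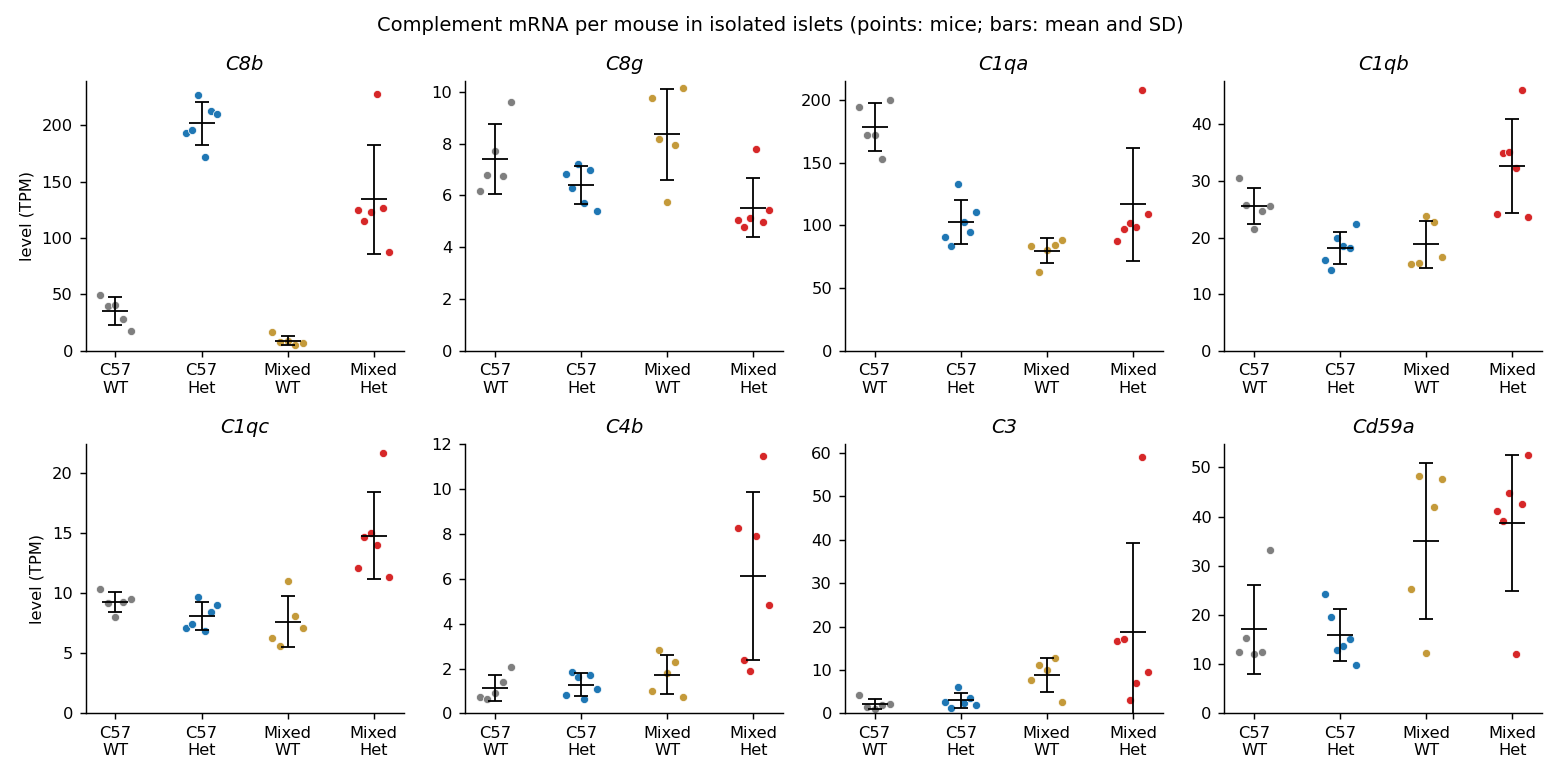
Level in TPM of the 8 complement genes that passed the filter, 1 point per mouse, by group on the x axis, with the mean and SD as black bars (the lower SD bar of C3 in Mixed Het ends below 0 and is not drawn past it). C8b sits between 172 and 227 TPM in C57 Het and between 17.5 and 49.2 TPM in C57 WT, and 1 Mixed Het mouse stands at the top of C1qa, C1qb, C1qc, C4b and C3.

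C8b encodes the beta chain of complement component C8. In the 5 C57 WT mice C8b was at 49.2, 39.7, 40.2, 28.1 and 17.5 TPM. In the 6 C57 Het mice it ran from 172 to 227 TPM with a median of 203. All 6 Het mice lay above all 5 WT mice. The means were 34.9 ± 12.3 TPM (SD, n = 5) and 202 ± 18.9 TPM (SD, n = 6), a 5.78-fold difference. On the log2(TPM + 1) scale C8b rose by 2.57 (SE 0.25, limma adjusted p = 1.41e-07). Leaving out any 1 of the 22 libraries gave between 2.35 and 2.71. These C57 mice share no library with the Mixed mice for which the gene was chosen. All 22 libraries entered the fit, however, so the Mixed mice shared in its estimate of the spread. The members were also chosen with earlier results of these data known.

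In Mixed WT mice C8b was at 16.4, 7.80, 8.74, 5.25 and 7.07 TPM. In Mixed Het mice it ran from 87.8 to 228 TPM with a median of 124, and these groups did not overlap either. The means were 9.05 ± 4.29 TPM (SD, n = 5) and 134 ± 48.2 TPM (SD, n = 6), a ratio of 14.8 and a log2 difference of 3.78. Mixed Het replicate 4, at 228 TPM, stood apart from the other 5, whose highest was 127 TPM. By mean level the groups ran from C57 Het through Mixed Het and C57 WT down to Mixed WT. The ranges of both Het groups overlapped through replicate 4, and every other pair of neighbours in that order was separate. C57 WT islets held 3.86 times the C8b mean of Mixed WT islets.

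The genes of the partner chains of C8b differed in level. C8a, the gene of the alpha chain, which inserts into the target membrane, was listed at 0 in 21 libraries and at 0.0158 TPM in C57 Het replicate 2. C8g, the gene of the small lipocalin chain of C8, was measured in every library between 4.76 and 10.1 TPM. It was at 9.76, 8.18, 5.73, 7.97 and 10.1 TPM in Mixed WT mice and ran from 4.76 to 7.80 TPM, with a median of 5.10, in Mixed Het mice. Of the 6 Mixed Het mice, 5 lay below every WT mouse, and the exception was again replicate 4. The mean fell from 8.36 ± 1.75 (SD, n = 5) to 5.53 ± 1.13 TPM (SD, n = 6), a log2 difference of -0.51 (SE 0.13, limma adjusted p = 0.00352).

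In C57 mice C8g was at 6.16, 6.77, 7.71, 6.75 and 9.62 TPM in WT and ran from 5.40 to 7.22 TPM, with a median of 6.55, in Het. These groups overlapped, and the log2 difference of -0.17 (SE 0.13, limma adjusted p = 0.313) did not pass. The test of whether the C8g difference depended on background did not pass either (interaction -0.34, limma adjusted p = 0.258). The C8b level divided by the C8g level of the same mouse was 5.01 ± 2.27 (SD, n = 5) in C57 WT and 31.7 ± 3.69 (SD, n = 6) in C57 Het. The same ratio was 1.1 ± 0.47 (SD, n = 5) in Mixed WT and 24.0 ± 4.31 (SD, n = 6) in Mixed Het.

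The other terminal components were near 0. C9, the subunit that polymerizes into the pore, reached at most 0.0339 TPM, and Hc, the gene of C5, at most 0.0355 TPM. C6 had group means between 0.134 and 0.22 TPM. C7 had means of 0.418 (WT) and 0.607 TPM (Het) in C57 and of 0.258 and 1.46 TPM in Mixed, with 4.57 TPM in Mixed Het replicate 5. All 4 failed the filter and were not tested. Among genes of the membrane attack complex, C8b was thus abundant in islets in which C8a, C9 and Hc were listed at or near 0.

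C8b and C8a lie next to each other in the mouse genome. The 250 reference bases before the start of each are shown, 5′ to 3′ on the gene's own strand, since 1 of these neighbours was abundant and the other was not. They are RefSeq sequences of build GRCm38.p6, a C57BL/6J genome, so they do not represent the Mixed mice, and the deposited table was made on mm39. Capitals mark TGCTGAC, the half-site bound by MAF factors.
C8b, chr4:104766067-104766316, plus strand: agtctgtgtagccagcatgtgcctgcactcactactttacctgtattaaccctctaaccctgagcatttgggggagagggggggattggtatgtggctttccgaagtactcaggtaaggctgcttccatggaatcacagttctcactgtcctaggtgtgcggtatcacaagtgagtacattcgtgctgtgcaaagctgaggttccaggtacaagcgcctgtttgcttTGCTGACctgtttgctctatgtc
C8a, chr4:104876399-104876648, minus strand: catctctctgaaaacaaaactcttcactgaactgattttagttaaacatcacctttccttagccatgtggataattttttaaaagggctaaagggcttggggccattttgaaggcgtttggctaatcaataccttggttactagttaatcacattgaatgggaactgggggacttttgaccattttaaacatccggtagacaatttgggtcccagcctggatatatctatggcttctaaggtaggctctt
The motif TGCTGAC was searched on both strands. It occurred once before C8b, 23 to 17 bases before the start, and in none of the other 6 members with a window in the table (C8a, C8g, C3, C1qb, C1qc and Cd59a). Of all 32851 windows of that length, 3.81% held it. The shorter TGCTGA, which TGCTGAC contains, occurred in 16.1% of all windows and in those of C8b, C3 and C1qb. A match describes letters of the reference and shows no binding.

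The genes around C8b were also read out. In the RefSeq gene order the neighbours on one side were Dab1, Gm12717 and Gm36661, and on the other C8a, Fyb2 and Gm40216. Dab1, which encodes an adaptor of reelin signalling, was at 0.433, 0.393, 0.508, 0.223 and 0.267 TPM in C57 WT mice and ran from 1.7 to 2.63 TPM, with a median of 1.95, in C57 Het mice. In Mixed mice Dab1 was at 0.492, 0.405, 0.187, 0.457 and 0.402 TPM in WT and ran from 1.47 to 3.49 TPM, with a median of 2.65, in Het. Het and WT did not overlap on either background, and the ratios of means were 5.58 in C57 and 6.59 in Mixed. The log2 differences of 1.15 and 1.33 understate those ratios, since 1 was added to low values. Every WT mouse was under 1 TPM, so Dab1 passed the filter only through the Het mice. Its differences are therefore given as a description without a test. Fyb2 had group means between 0.151 and 0.317 TPM, Gm12717 was listed at 0, and both failed the filter. The mean ratio of C8b to Dab1 within a mouse was 97.0 in WT and 101 in Het on C57, and 25.7 in WT and 54.3 in Het on Mixed.

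**Figure D2:**
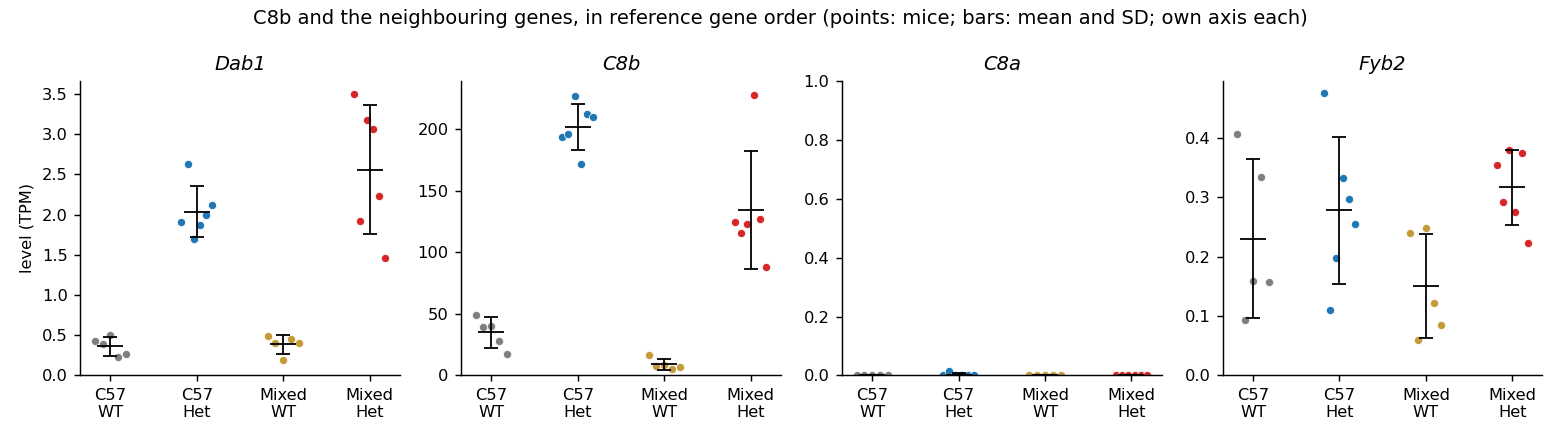
Level in TPM of Dab1, C8b, C8a and Fyb2, 1 panel per gene with its own y axis, 1 point per mouse, with mean and SD as black bars. Dab1 and C8b separate Het from WT on both backgrounds, while C8a lies on the zero line and Fyb2 stays under 0.5 TPM.

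Genes that followed C8b from mouse to mouse were ranked by Pearson r of log2(TPM + 1) over the 22 libraries after each group mean was removed, a description in which points share library composition. Hpse, which encodes the enzyme heparanase, had r = 0.83 (Spearman 0.65), Zfp874a had r = 0.78 (Spearman 0.62) and Pwp1 had r = 0.78 (Spearman 0.68). The other 2 of the top 5 carry provisional names. These are the highest r among all genes that passed the filter, so the ranking itself selects high values. Mixed Het replicate 4 stood apart in C8b (228 TPM, others of its group 87.8 to 127 TPM), and its part in these r values was not tested. Dab1 had r = 0.41, Mafa had r = 0.30, and C1qa, C1qb and C1qc had r of -0.02, 0.02 and 0.04.

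Markers of several cell types moved beside C8b. Markers of alpha, delta and PP cells (8 genes) summed, on the C57 background, to between 45091 and 89450 TPM in WT mice and between 104410 and 154217 TPM in Het mice. In Mixed mice they summed to between 43920 and 75863 TPM in WT and between 126829 and 187709 TPM in Het. Of these 8 genes, 6 rose in C57 (75.0%, against 26.4% of all genes) and 7 in Mixed (87.5%, against 30.7%). Beta-cell markers summed to between 369914 and 449821 TPM in WT and 323787 and 379227 TPM in Het mice of C57. There, 1 of 8 rose and 1 fell, against 26.4% and 11.6% of all genes. In Mixed mice the sums lay between 401255 and 478791 TPM in WT and 250651 and 342599 TPM in Het. Of the 8 beta-cell markers, 5 fell in Mixed (62.5%, against 13.5% of all genes). Markers of the digestive-enzyme-producing acinar cells (9 genes) summed to between 204 and 383 TPM in WT and 246 and 1617 TPM in Het mice of C57, and to between 169 and 849 TPM and 598 and 1153 TPM in those of Mixed. Of the 8 acinar markers tested, 8 rose in C57 and 1 in Mixed, against 26.4% and 30.7% of all genes. In whole islets, a change in the number of cells of a type and a change in RNA per cell cannot be told apart, and the part of these cells in the C8b difference was not tested. Among 8 hepatocyte markers, Fga had group means of at most 0.0862 TPM and Cyp2e1 of at most 0.0353 TPM, and Alb had group means between 1.15 and 2.61 TPM. Apoa1 had means of 0.456 TPM in WT and 5.80 TPM in Het mice of Mixed, without overlap, and Fgb of 0.249 and 1.18 TPM. Apoa1 reached at most 0.927 TPM in C57 WT and 0.616 TPM in Mixed WT mice, so it passed the filter only through Het mice. Of the 4 hepatocyte markers that passed the filter, 1 fell in C57 and 1 rose in Mixed (25.0% each, against 11.6% of all genes lower and 30.7% higher). Apoa1 enters these counts as a description without a test. C8b thus exceeded the liver gene Alb on average in every group. Tat did not follow this, with means of 37.1 TPM in C57 WT and 28.3 TPM in Mixed WT, above the C8b means of 34.9 and 9.05 TPM. Apoa2, at 9.63 TPM, was also above C8b in Mixed WT. In Het mice Tat averaged 26.1 TPM in C57 and 23.0 TPM in Mixed, below C8b. The summed level of the 8 hepatocyte markers, mostly Tat and Apoa2, lay between 45.4 and 67.6 TPM in WT and 36.4 and 51.9 TPM in Het mice of C57, and between 36.1 and 45.8 TPM and 30.3 and 64.4 TPM in those of Mixed.

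**Figure D3:**
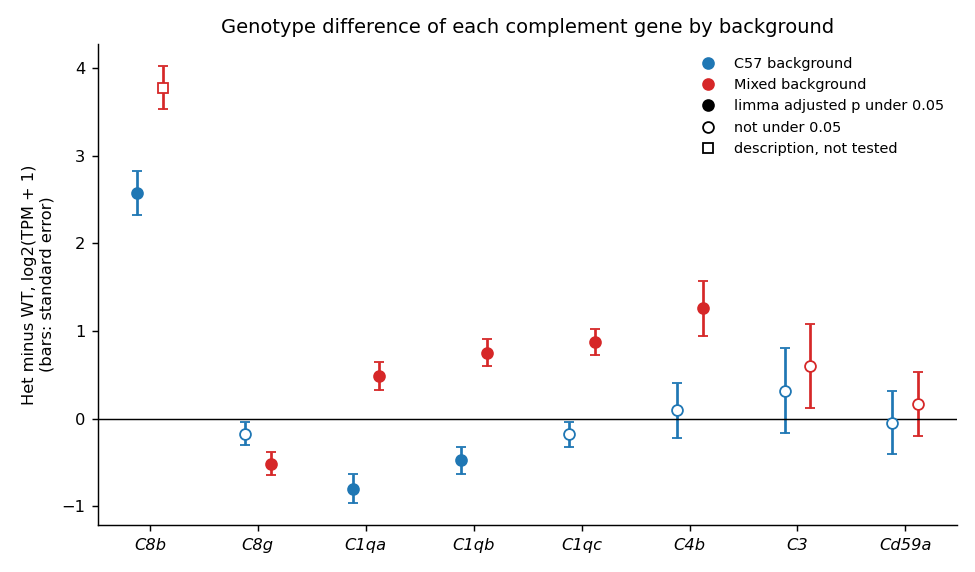
Het minus WT difference of each measured complement gene on the log2(TPM + 1) scale, with standard errors as bars, in C57 (blue) and Mixed (red) islets. Filled circles have a limma adjusted p under 0.05, and the open square of C8b in Mixed, at 3.78, is a description; the C1q chains lie below 0 in C57 and above 0 in Mixed.

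C1qa, C1qb and C1qc encode the A, B and C chains of C1q, which assemble in equal numbers. In C57 mice the A and B chains were lower in Het. C1qa was at 194, 172, 172, 153 and 200 TPM in WT and ran from 83.8 to 133 TPM, with a median of 98.9, in Het. Every Het mouse lay below every WT mouse. The mean fell from 178 ± 19.0 (SD, n = 5) to 103 ± 17.6 TPM (SD, n = 6), or to 57.6% of WT, a log2 difference of -0.80 (SE 0.16, limma adjusted p = 0.000791).

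C1qb in C57 was at 30.5, 25.8, 21.6, 24.7 and 25.6 TPM in WT and ran from 14.3 to 22.4 TPM, with a median of 18.3, in Het. The groups overlapped by 1 mouse of each. The C1qb difference was -0.48 (SE 0.16, limma adjusted p = 0.0192), and the call was lost without C57 WT replicate 1 (limma adjusted p = 0.0579) or C57 Het replicate 2 (limma adjusted p = 0.0506), and with sample weights (-0.33, limma adjusted p = 0.0729). C1qc was at 10.3, 9.21, 8.0, 9.25 and 9.47 TPM in the WT mice of C57 and ran from 6.87 to 9.70 TPM, with a median of 7.93, in C57 Het, and its difference of -0.18 (limma adjusted p = 0.344) did not pass.

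In Mixed mice all 3 chains were higher in Het. C1qa was at 83.7, 62.8, 80.2, 84.5 and 88.2 TPM in WT and ran from 87.2 to 208 TPM, with a median of 100.1, in Het. The ranges touched, since the lowest Het mouse lay below the highest WT mouse. C1qa rose by 0.49 on the log2 scale (SE 0.16, limma adjusted p = 0.0203). Without Mixed Het replicate 5, at 208 TPM, the C1qa difference was 0.31 (limma adjusted p = 0.0334), and without Mixed WT replicate 2 the call was lost (0.40, limma adjusted p = 0.0641). It was also lost under median-of-ratios scaling (0.35, limma adjusted p = 0.134) and quantile normalization (0.36, limma adjusted p = 0.103), and when only the Mixed mice were fitted (0.49, limma adjusted p = 0.0552).

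C1qb in Mixed was at 15.4, 15.6, 23.9, 22.8 and 16.5 TPM in WT and ran from 23.6 to 46.1 TPM, with a median of 33.6, in Het. Of the 6 Het mice, 5 lay above every WT mouse, and C1qb rose 1.73-fold (log2 difference 0.75, SE 0.16, limma adjusted p = 0.00053). C1qc in Mixed was at 6.29, 5.63, 11, 8.06 and 7.08 TPM in WT and ran from 11.4 to 21.6 TPM, with a median of 14.3, in Het. Its groups did not overlap, and C1qc rose 1.94-fold (log2 difference 0.88, SE 0.15, limma adjusted p = 5.81e-05).

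The C1q chains passed the test of whether their genotype difference depended on background. The interaction, the Mixed difference minus the C57 difference, was 1.28 for C1qa (SE 0.23, limma adjusted p = 0.00362), 1.23 for C1qb (SE 0.22, limma adjusted p = 0.00319) and 1.06 for C1qc (SE 0.21, limma adjusted p = 0.00556). These 3 were the only ones of the 7 members tested that passed (42.9%), where 7.36% of all genes passed and 4.62% passed upward. Each was above 1, and 1.68% of all genes tested passed with an absolute log2 value of at least 1, in either direction. The chains form 1 protein, so the share of 42.9% does not rest on 3 separate members. C8b, not tested here, had an interaction of 1.2 as a description, and that of C4b, 1.16, did not pass (limma adjusted p = 0.106).

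The chains were also compared between backgrounds. Between WT groups, 2 of the 7 members passed (28.6%), against 11.3% of all genes, and C1qa was 2.23-fold higher in C57 WT than in Mixed WT, with no overlap (Mixed minus C57 -1.15, SE 0.17, limma adjusted p = 0.000162). Of all genes, 6.13% did not overlap there, and 2.29% passed with a log2 change of at least 1, as C1qa and C3 did. C1qb (-0.44, limma adjusted p = 0.0821) and C1qc (-0.28, limma adjusted p = 0.253) did not pass there. Between Het groups, 5 of the 7 members passed (71.4%), all higher in Mixed, against 20.5% of all genes (13.3% higher). C1qb was 1.79-fold higher in Mixed Het (log2 difference 0.79, limma adjusted p = 0.000738) and C1qc 1.83-fold (0.78, limma adjusted p = 0.000459), both without overlap, and C1qa did not pass (0.13, limma adjusted p = 0.604). Of all genes, 9.85% did not overlap between the Het groups, and 2.38% passed with a log2 change of at least 1, as 3 members (C3, C4b and Cd59a) did. The comparisons between backgrounds use the same mice as those between genotypes.

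The chains were not measured in equal amounts. C1qa divided by C1qb of the same mouse was 7.0 ± 0.82 (SD, n = 5) in C57 WT, 5.66 ± 0.59 (SD, n = 6) in C57 Het, 4.37 ± 0.95 (SD, n = 5) in Mixed WT and 3.58 ± 0.82 (SD, n = 6) in Mixed Het. C1qb divided by C1qc was 2.76 ± 0.12, 2.26 ± 0.29, 2.51 ± 0.28 and 2.21 ± 0.16 (SD) in the same order. By the ranking used for C8b, the named genes that followed C1qa most closely were Slc5a10 (r = 0.75, Spearman 0.43), Acp5 (r = 0.73, Spearman 0.43), which encodes tartrate-resistant acid phosphatase, and Vsir (r = 0.73, Spearman 0.47), which encodes the immune checkpoint VISTA. C1qc had r = 0.67 with C1qa and C1qb r = 0.62. Mixed Het replicate 5 stood apart in C1qa (208 TPM, others of its group 87.2 to 109 TPM), and its part in these r values was not tested.

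Macrophage markers were read beside the C1q chains. Their summed level (10 genes, none of them at 0 in a whole group) lay between 34.1 and 57.7 TPM in C57 WT mice, 29.4 and 39.4 in C57 Het, 29.3 and 42.3 in Mixed WT, and 54.8 and 98.4 in Mixed Het mice. Of the 8 markers tested, 2 fell in C57 (25.0%, against 11.6% of all genes lower and 38.0% called) and 5 rose in Mixed (62.5%, against 30.7% higher). The interaction passed for 4 of the 8 (50.0%, against 7.36%). Mixed Het replicate 5, the highest in C1qa, C1qb and C1qc, was also the highest in the summed markers, at 98.4 TPM. C57 WT, the group with the highest C1qa, had summed markers that overlapped those of C57 Het and Mixed WT. The part of macrophage number in the C1q differences was not tested.

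**Figure D4:**
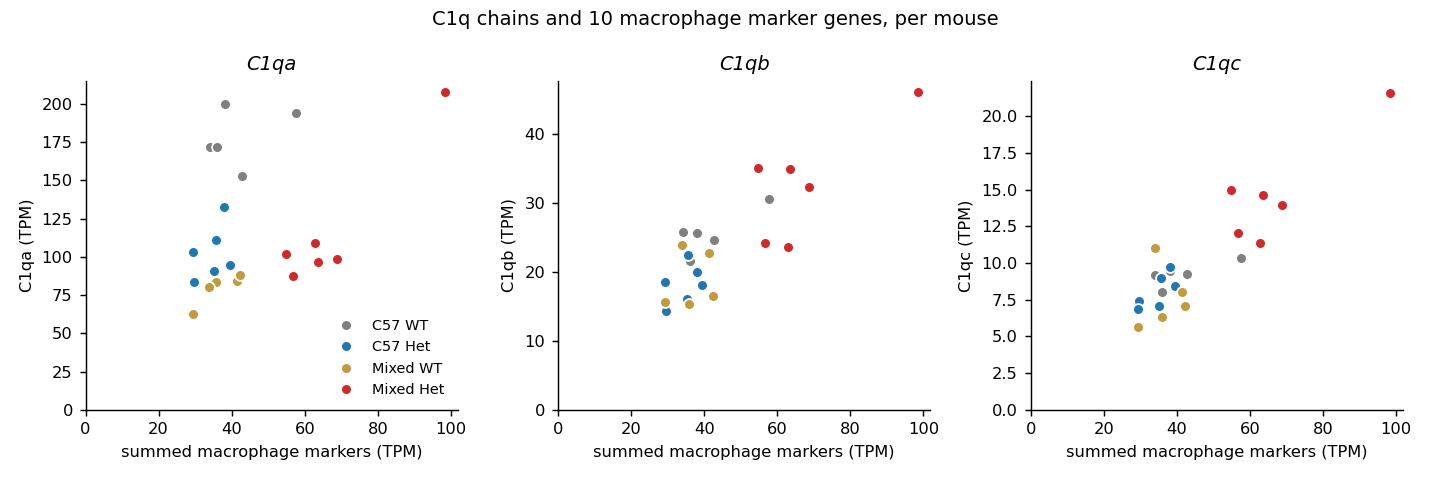
C1qa, C1qb and C1qc in TPM (y axes) against the summed TPM of 10 macrophage marker genes (x axes), 1 point per mouse, coloured by group. Mixed Het mice lie to the right, from 54.8 to 98.4 TPM of markers, while C57 WT mice reach 153 to 200 TPM of C1qa at 34.1 to 57.7 TPM of markers.

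C4b and C3 supply the opsonic fragments of the cascade. C4b was at 1.0, 2.81, 1.80, 2.28 and 0.713 TPM in Mixed WT mice and ran from 1.87 to 11.5 TPM, with a median of 6.36, in Mixed Het mice. All 6 Het mice lay above the WT mean and 4 of them above every WT mouse. C4b rose 3.56-fold, from 1.72 ± 0.87 (SD, n = 5) to 6.12 ± 3.75 TPM (SD, n = 6), a log2 difference of 1.26 (SE 0.32, limma adjusted p = 0.00283).

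In C57 mice C4b was at 0.745, 0.656, 0.916, 1.39 and 2.06 TPM in WT and ran from 0.64 to 1.84 TPM, with a median of 1.35, in Het, and its difference of 0.09 (limma adjusted p = 0.842) did not pass. The C4b interaction of 1.16 did not pass (limma adjusted p = 0.106), except without Mixed Het replicate 3 (1.39, limma adjusted p = 0.0347). Among Het mice C4b was 4.76-fold higher on the Mixed background with no overlap (log2 difference 1.48, SE 0.30, limma adjusted p = 0.00149), and between WT groups it did not pass (0.31, limma adjusted p = 0.581). C4a, a near-identical copy of C4b, moved the other way in Mixed (from 5.33 to 3.57 TPM, log2 difference -0.53, limma adjusted p = 0.0321), a call that was lost without Mixed WT replicates 1, 2 or 4 or Mixed Het replicates 2, 5 or 6, with limma adjusted p up to 0.0992. How reads shared by C4a and C4b were counted is not given in the sources used here, so both are uncertain.

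C3, the central component on which all pathways converge, ranged from 1.05 to 59.0 TPM over the 22 mice. It was at 4.29, 1.45, 1.05, 1.85 and 2.19 TPM in C57 WT, and ran from 1.25 to 5.98 TPM, with a median of 2.57, in C57 Het. It was at 7.60, 11.3, 10.1, 12.9 and 2.73 TPM in Mixed WT, and ran from 3.04 to 59.0 TPM, with a median of 13.1, in Mixed Het. Genotype groups overlapped on both backgrounds. Neither C3 genotype difference passed (C57 0.32, limma adjusted p = 0.632; Mixed 0.60, SE 0.48, limma adjusted p = 0.327). Leaving out 1 library moved the Mixed value between 0.17 and 0.95.

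C3 was higher on the Mixed background. Between Het groups it was 6.27-fold higher (log2 difference 1.87, SE 0.46, limma adjusted p = 0.00601), and between WT groups 4.11-fold (1.59, SE 0.50, limma adjusted p = 0.0429). The WT call was lost in 12 of the 22 leave-one-out fits, with limma adjusted p up to 0.0995: those without C57 WT replicates 2, 3, 4 or 5, C57 Het replicates 1, 4, 5 or 6, or Mixed WT replicates 1, 2, 3 or 4. Cfb, the alternative-pathway protease that pairs with C3b, was between 0 and 0.089 TPM in every library and was not tested.

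Markers of stromal and duct cells were read beside C4b and C3. Mesenchymal markers (8 genes) summed to between 39.1 and 68.0 TPM in Mixed WT and between 65.1 and 385 TPM in Mixed Het mice, and 5 of the 7 tested rose (71.4%, against 30.7% of all genes). In C57 they summed to between 43.5 and 119 TPM in WT and between 45.5 and 72.2 TPM in Het, and 1 of the 7 fell (14.3%, against 11.6%). Mixed Het replicate 5 had the highest mesenchymal sum (385 TPM), C3 (59.0 TPM) and C4b (11.5 TPM), and Mixed Het replicate 3 the lowest of its group in each (65.1, 3.04 and 1.87 TPM). Of the 6 ductal markers tested, 5 rose and 1 fell in Mixed, against 30.7% and 13.5% of all genes. Ductal markers (7 genes) summed to between 141 and 214 TPM in Mixed WT and between 195 and 570 TPM in Mixed Het. In C57 mice, whose C3 and C4b differences did not pass, they summed to between 158 and 183 TPM in WT and between 201 and 314 TPM in Het without overlap, and 2 of the 6 rose (33.3%, against 26.4%). The part of these cells in the C3 and C4b differences was not tested.

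Cd59a encodes the membrane protein that blocks the attack complex. It was at 12.6, 15.2, 12.1, 12.4 and 33.1 TPM in the WT mice of C57 and ran from 9.76 to 24.3 TPM, with a median of 14.4, in C57 Het. It was at 25.2, 48.3, 12.2, 41.9 and 47.6 TPM in Mixed WT and ran from 12.0 to 52.5 TPM, with a median of 41.9, in Mixed Het. Genotype groups overlapped throughout, and neither difference passed (C57 -0.04, limma adjusted p = 0.938; Mixed 0.17, limma adjusted p = 0.731), with signs that changed when single libraries were left out.

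Among Het mice Cd59a was 2.43-fold higher on the Mixed background (log2 difference 1.17, SE 0.35, limma adjusted p = 0.0199), a call lost without C57 Het replicate 6 (limma adjusted p = 0.0505). Between WT groups it was 0.95 (SE 0.38, limma adjusted p = 0.111), and passed without C57 WT replicate 5 (limma adjusted p = 0.0482) or Mixed WT replicate 3 (limma adjusted p = 0.0274). Mixed Het replicate 4 was at 12.0 TPM, inside the C57 range, whereas the other 5 Mixed Het mice were between 39.2 and 52.5 TPM. The same mouse had the highest C8b of its group, at 228 TPM beside a C57 Het maximum of 227, and its highest C8g. Cd59b, the closely related second CD59 gene, was lower, with group means between 1.0 and 2.15 TPM, and rose in Mixed (0.43, limma adjusted p = 0.02), except without Mixed WT replicate 3 (limma adjusted p = 0.0579).

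A further 43 genes of the complement system were read by role, of which 21 passed the filter. In C57, 7 of the 21 passed the Het against WT test (33.3%, against 38.0% of all genes), 6 higher and 1 lower. In Mixed, 13 passed (61.9%, against 44.1%), 12 higher and 1 lower. The median log2 difference was 0.08 in C57 and 0.54 in Mixed. Regulators held most of the calls in C57. Of 5 soluble regulators measured, 3 rose in C57 and 4 in Mixed, and of 5 membrane regulators, 2 rose and 1 fell in C57 and 3 rose in Mixed. Those soluble regulators were called in 60.0% and 80%, and the membrane regulators in 60.0% and 60.0%, against 38.0% and 44.1% of all genes.

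Clu, the fluid-phase inhibitor of the attack complex known as clusterin, rose from 62.1 ± 6.05 to 119 ± 26.6 TPM in C57 (log2 difference 0.90, limma adjusted p = 0.00134) and from 76.7 ± 20.7 to 192 ± 59.8 TPM in Mixed (1.30, limma adjusted p = 2.16e-05; SD, n = 5 WT and 6 Het throughout). Serping1, which encodes the C1 inhibitor, rose from 43.8 ± 6.47 to 73.1 ± 8.19 TPM in C57 (0.73, limma adjusted p = 0.000112) and from 35.9 ± 5.57 to 91.2 ± 17.0 TPM in Mixed (1.31, limma adjusted p = 3.84e-08). Het and WT did not overlap for Clu or Serping1 on either background. The Serping1 difference was larger in Mixed (interaction 0.58, limma adjusted p = 0.0431), a call lost in 14 of the 22 fits that left out 1 library (limma adjusted p up to 0.079). Cr1l, the rodent membrane regulator Crry, rose by 0.45 in C57 (limma adjusted p = 0.000629) and by 0.62 in Mixed (limma adjusted p = 1.3e-05). Cd55, which encodes decay-accelerating factor, rose by 0.48 (limma adjusted p = 0.00342) and 0.50 (limma adjusted p = 0.00162). Cd55 was a low gene, and a pseudocount of 0.1 moved these differences to 0.89 and 0.97. Whether it passed the filter without its Het mice was not examined, and the counts of membrane regulators include it.

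Factor I, the protease that cleaves C3b and C4b, is encoded by Cfi, which rose from 1.38 to 3.17 TPM in C57 (0.82, limma adjusted p = 0.0143, lost without C57 WT replicate 5 at 0.0511) and from 0.463 to 2.96 TPM in Mixed (1.31, limma adjusted p = 0.000273).

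Of 6 initiation genes measured, 3 passed in Mixed (50.0%, against 44.1% of all genes). C1ra, the gene of a C1 protease, rose by 0.88 there (limma adjusted p = 0.0102) and Colec11, a lectin gene, by 0.54 (limma adjusted p = 0.017, and 0.0603 when only the Mixed mice were fitted). Their C57 differences were 0.08 (limma adjusted p = 0.834) and -0.09 (limma adjusted p = 0.727), and neither interaction passed (0.80, limma adjusted p = 0.181, and 0.63, limma adjusted p = 0.118). Colec11 was also a low gene (0.94 in Mixed with a pseudocount of 0.1), and whether it passed the filter without its Het mice was not examined. C4a, described with C4b, was the one that was lower. Of 4 receptors, 1 rose in C57 (25.0%, against 26.4% of all genes higher) and 3 in Mixed (75.0%, against 30.7%). Itgax, the gene of the alpha chain of complement receptor CR4, rose by 1.2 in Mixed (limma adjusted p = 0.000139) and its interaction of 1.1 passed (limma adjusted p = 0.034), except in 5 of those 22 fits (limma adjusted p up to 0.0616). Itgb2, the gene of its beta chain, rose by 0.75 in Mixed (limma adjusted p = 0.00135). Of the 21 genes, 3 passed the interaction (9 at an unadjusted p under 0.05), against 7.36% of all genes. By limma that count was 0 (8 at an unadjusted p under 0.05) without C57 WT replicate 1, C57 Het replicate 1 or Mixed WT replicate 1. It was 1 without C57 Het replicates 3, 4, 5 or 6, Mixed WT replicates 3 or 4, or Mixed Het replicates 1 or 5, and 7 without Mixed Het replicate 3.

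**Figure D5:**
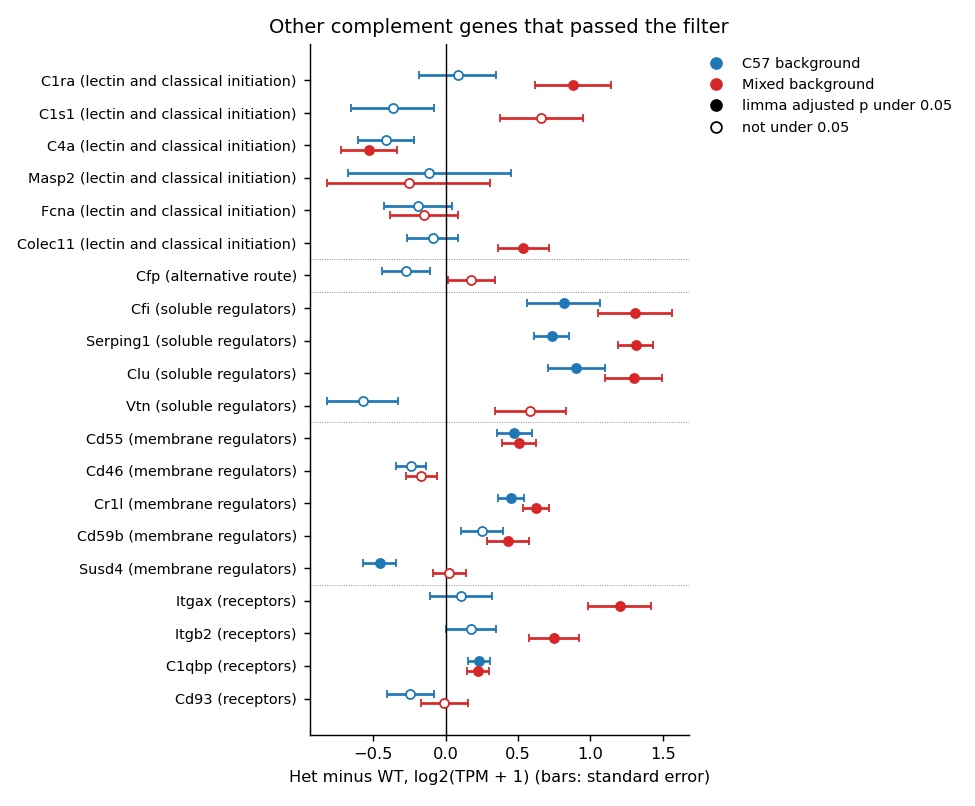
Het minus WT difference of 20 of the 21 other complement genes on the log2(TPM + 1) scale (x axis), grouped by role, with standard errors as bars, in C57 (blue) and Mixed (red). Filled points have a limma adjusted p under 0.05; Clu, Serping1 and Cfi lie to the right of 0 on both backgrounds, and Itgax, at 1.2, in Mixed.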

How the data were processed

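The authors deposited 1 table of TPM for 57010 gene rows and 22 libraries of poly(A) RNA, each column summing to 1000000. The submitters' processing notes name STAR 2.7.10b, MultiQC 1.7 and build mm39. The counting tool and the annotation are not given in the sources used here. Where 147 symbols repeated, the row with the highest mean was used. limma 3.58.1 in R 4.3.3 fitted the 4 group means (lmFit, eBayes with trend) to log2(TPM + 1) of 16749 genes with at least 1 TPM in at least 5 libraries. Because TPM columns share 1 total, less of an abundant transcript means higher values elsewhere. On simulated data (200 of 16749 genes changed), 85% of those changed by a log2 of 1 and 100% of those changed by 2 were called in C57, and 90% and 99% in Mixed. Of the 191 and 210 genes called there, 6 and 21 had not been changed. The simulation used normal noise with the same spread in every group and kept no fixed column total. It also changed far fewer genes than were called in the data (38.0% in C57 and 44.1% in Mixed), so its rates may not carry over.

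Replicate numbers follow accession order and only name a mouse. The labels' library numbers are consecutive within each group, so library order and group cannot be told apart. The members, the list of other complement genes and the marker lists were chosen with earlier results of these data known. Other complement genes were named where a genotype difference passed with an absolute log2 change of at least 0.5, and Cd59b, C4a (which also passed that rule), C6, C7, C9 and Hc whatever their values. Of the genes that rule named, 1 is counted but not reported here. A planned comparison of protein sequences was not done. Alternatives were a pseudocount of 0.1, no filter, a filter on mean TPM (5), scaling by median of ratios, quantile normalization, fitting only the mice compared, eBayes without trend, sample weights (arrayWeights), an absolute log2 change of at least 1 and leaving out each library.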

Additional observations from a re-analysis of the deposited data

Results flagged for a closer look

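Single mice stood apart from the others of their group in 14 of 103 groups of values examined, where chance alone gives about 1 in 20. In 4 of the 14 every other mouse was listed at 0, so any value above 0 stands apart and that rate does not apply. Mixed Het replicate 5 was the highest of its group, by a wide gap, in C3 (59.0 TPM, others 3.04 to 17.1), C1qa (208 TPM, others 87.2 to 109), C1qc (21.6 TPM, others 11.4 to 15.0), Itgb2 (5.0 TPM, others 1.72 to 2.82), C7 (4.57 TPM, others 0.384 to 1.89) and Cfb (0.089 TPM, others 0.0282 to 0.0464). Mixed Het replicate 4 was the highest in C8b (228 TPM, others 87.8 to 127), C8g (7.80 TPM, others 4.76 to 5.45) and C9 (0.0339 TPM, others listed at 0), and the lowest in Cd59a (12.0 TPM, others 39.2 to 52.5).

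C57 WT replicate 5 was the highest in Cd59a (33.1 TPM, others 12.1 to 15.2) and C9 (0.0192 TPM, others listed at 0). C57 Het replicate 2 had the only C8a value above 0 (0.0158 TPM), and Mixed WT replicate 2 the only Hc value above 0 of its group (0.0233 TPM).

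The genotype difference depended on background, by limma's test of the interaction on log2(TPM + 1), for C1qa (1.28), C1qb (1.23), C1qc (1.06), Itgax (1.1) and Serping1 (0.58). Of the 22 fits that left out 1 library, 5 lost the Itgax call and 14 the Serping1 call. Vtn, chosen after its values were seen, also passed, and lost the call in 15 of them.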

How the results depend on the processing

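No paired analysis was possible because the replicate numbers follow accession order and do not pair mice. Of 1744 alternative values for single genes, 1698 kept their direction and their side of the threshold, 32 lost the call, 4 gained one and 10 changed sign. These values cover the members, Dab1 and the genotype differences of the other named genes, and not the background dependence of Serping1, Itgax and Vtn, whose losses stand beside those genes. The sign changes were in differences of C3, C1qa and Cd59a that did not pass a test. Leaving out 1 library moved the C3 interaction between -0.15 (without Mixed Het replicate 5) and 0.63, with -0.042 without Mixed WT replicate 5, and the C1qa difference between Het groups between -0.045 (without Mixed Het replicate 5) and 0.21. It moved the Cd59a genotype difference between -0.17 and 0.21 in C57 and between -0.15 and 0.47 in Mixed, and its interaction between -0.11 and 0.51. The C57 difference of Cd59a was 0.11 with sample weights. A pseudocount of 0.1 moved low genes most, such as Dab1 (2.23 in C57 and 2.43 in Mixed), Cfi (2.28 in Mixed), Cd55 (0.89 and 0.97), Colec11 (0.94 in Mixed) and Cd59b (0.72 in Mixed). The cause was not tested.

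With an absolute log2 change of at least 1 required, members called numbered 1 in C57 (C8b), 1 in Mixed (C4b) and 3 between Het groups, and other complement genes 0 in C57, 5 in Mixed, 1 between WT groups and 3 between Het groups. The 0 stands beside 7 that limma called at any size, and 10 at an unadjusted p under 0.05. Over all genes, that stricter rule was met by 3.28% in C57, 6.12% in Mixed, 2.29% between WT groups and 2.38% between Het groups. Over all genes, the interaction was called in 1233, in 2628 with sample weights and in 714 without the filter. Without the filter, more genes being tested, 1 member passed between WT groups, and by limma 0 other genes passed the interaction (10 at an unadjusted p under 0.05). Between Het groups 6 of 9 members then passed, with C8a and Cfb among those tested, where 5 of 7 had. Of the 41 other genes tested without the filter, those called were 8 in C57, 16 in Mixed, 2 between WT groups and 14 between Het groups. With a mean TPM of at least 5, fewer genes being tested, the other genes called were 4 in Mixed, 1 between WT groups and 3 between Het groups. Median-of-ratios scaling gave 5 other genes for the interaction and, in C57, 5 higher and 4 lower where 6 and 1 were called, and quantile normalization 5 between WT groups. Leaving out 1 library gave 2 to 3 members in C57, 4 to 5 in Mixed, 3 to 4 for the interaction, 1 to 2 between WT groups and 4 to 5 between Het groups. The same gave 5 to 9, 11 to 15, 0 to 7, 1 to 4 and 9 to 12 of the other genes; the count of 3 between WT groups was 1 without C57 WT replicate 3, Mixed WT replicate 1 or Mixed WT replicate 4. Depth was unknown, so values near 0 (C8a, Cfb, C9, Hc) carry no detection limit.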

Other observations

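Masp2, which encodes a protease of the lectin pathway, fell outside the naming rule and was chosen after its values were seen. It had means of 0.592 ± 0.157 (SD, n = 5) and 0.47 ± 0.111 TPM (SD, n = 6) in C57 WT and Het, and of 12.6 ± 7.96 (SD, n = 5) and 9.90 ± 5.24 TPM (SD, n = 6) in Mixed WT and Het. Mixed values ran from 0.705 to 22.8 TPM in WT and from 0.222 to 15.7 TPM in Het, so single Mixed mice lay inside or below the C57 range. Mixed minus C57 was 2.69 in WT and 2.55 in Het on the log2(TPM + 1) scale. Both are a description without a test, since Masp2 was picked from these values and passed the filter only through Mixed mice.

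Vtn, the gene of vitronectin, an inhibitor of the attack complex, was also chosen after its values were seen, so its p values are no independent test. Its means were 9.18 TPM in C57 WT, 5.53 in C57 Het, 8.56 in Mixed WT and 14.4 in Mixed Het. Neither genotype difference passed (C57 -0.57, limma adjusted p = 0.0678; Mixed 0.59, limma adjusted p = 0.0562), and the interaction did (1.16, limma adjusted p = 0.0439), but not in 15 of the 22 fits that left out 1 library (limma adjusted p up to 0.087).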
